A study of Mus musculus with 6 samples.

Results

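The genes described here are 9 markers of the oligodendrocyte lineage, found by exact symbol among the 22544 rows of a gene table that compares mouse cortical neurons at postnatal day 5 (P5) and postnatal day 3 (P3). They comprise 5 precursor genes (Olig1, Olig2, Pdgfra, Sox10 and Nkx2-2) and 4 genes of myelinating cells (Ugt8a, Mbp, Mag and Mog). All 9 symbols had a row, and all 9 were among the 12865 rows that the authors' test program, Cuffdiff, accepted for testing. RNA came from cortical upper-layer neurons of Swiss Webster mice, which carried GFP and were collected by FACS, with 3 biological replicates at P5 and 3 at P3. No genotype, transgene or treatment beyond age is given in the labels, and how GFP reached the neurons is not given in the sources used here. Expression is the authors' deposited FPKM (fragment counts divided by transcript length and library size), with 1 pooled value per age, so no value per animal can be shown and the depth of each library is unknown.

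Oligodendrocytes are the cells that wrap axons of the central nervous system in myelin. They arise from dividing precursors, which are recognised by the receptor Pdgfra and by the transcription factors Olig1, Olig2, Sox10 and Nkx2-2. As precursors leave the cycle they switch on enzymes for myelin lipids, such as Ugt8a, and then the myelin proteins Mbp, Mag and Mog. In the mouse cortex precursors are already abundant in the first postnatal days, while most myelin forms later. A sort for upper-layer neurons is not meant to collect this lineage, and bulk RNA does not show which cells held its transcripts. In such samples fewer cells of a type and less RNA per cell cannot be told apart.

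No member differed between the ages by the authors' Cuffdiff test. At q = 0.05, 0 of 9 members were called higher and 0 were called lower at P5, as were 0% of all tested rows in each direction, and the deposited q of every member was 0.999988. At an unadjusted p under 0.05 the count was also 0 of 9, against 0.770% of all tested rows. All 9 members had the higher FPKM at P5, where 56.8% of all tested rows did, but the ratios of Olig1 and Olig2 lay below the table's median ratio. The errors were wide: the standard error (SE) of a log2 ratio that the deposited test statistic implies ran from 0.90 for Olig2 to 2.22 for Nkx2-2. Absence of a call therefore does not show equal expression.

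Precursor genes made up most of the signal at each age, and myelin genes had the larger ratio of sums. The 5 precursor genes summed to 139 FPKM at P5 and 103 FPKM at P3, a ratio of sums of 1.35. The 4 myelin genes summed to 34.3 FPKM at P5 and 5.48 FPKM at P3, a ratio of sums of 6.25. Myelin genes thus held 19.8% of the summed FPKM of the 9 members at P5 and 5.06% at P3. The plot of levels by age shows this contrast gene by gene.

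**Figure D1:**
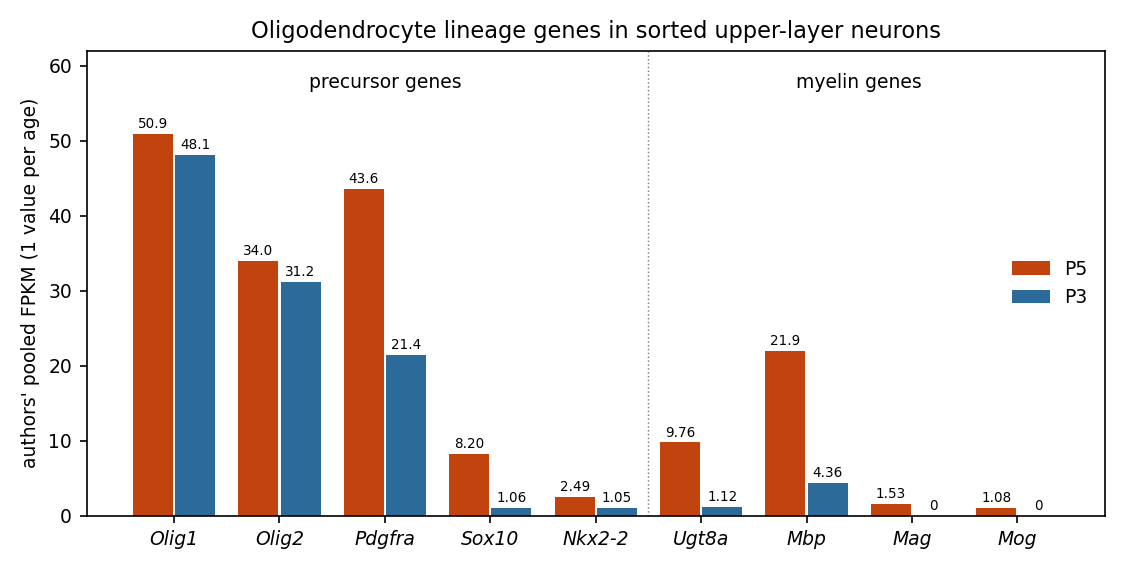
Bars give the authors' pooled FPKM of each member at P5 (orange, left) and P3 (blue, right), on a linear axis from 0, with no error because the table holds 1 value per age. Olig1 and Olig2 stand at nearly the same height at both ages (50.9 and 48.1, 34.0 and 31.2 FPKM), while Sox10, Nkx2-2 and all 4 myelin genes are below 5 FPKM at P3.

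Olig1 and Olig2 were the steadiest members. They encode basic helix-loop-helix factors that specify the lineage, and they lie next to each other on mm9 chromosome 16, Olig2 at 91225795 to 91228922 and Olig1 at 91270014 to 91272184, 41.1 kb apart. In the authors' deposited table Olig1 had 50.9 FPKM at P5 and 48.1 FPKM at P3 (log2 ratio 0.08, SE 0.92, p = 0.93). Olig2 had 34.0 FPKM at P5 and 31.2 FPKM at P3 (log2 ratio 0.12, SE 0.90, p = 0.89 in the authors' deposited table). The level of Olig1 over that of Olig2 was 1.50 at P5 and 1.54 at P3, so the pair kept nearly the same proportion. The 95% interval of Olig1 runs from 0.304 to 3.67 on the fold scale, which leaves room for a severalfold difference either way. Both ratios lay near the median of 0.13 over all tested rows that were above 0 at both ages, and relative to that median their sign turned to -0.050 for Olig1 and -0.0076 for Olig2.

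These 2 genes were also among the more abundant transcripts of the sort. Olig1 exceeded 92.9% of the rows with FPKM above 0 at P5 and 92.0% at P3, and Olig2 exceeded 89.6% at P5 and 87.7% at P3. The upper-layer genes gave a yardstick on the same per-length scale: the tested members of a list of 12, among them Cux1 and Cux2, had a median of 22.2 FPKM at P5 and 33.4 FPKM at P3. Olig1 stood above that median at each age. Olig2 stood above it at P5 (34.0 FPKM) and below it at P3 (31.2 FPKM). All 12 upper-layer genes were detected, the lowest at 1.99 FPKM at P5 and 1.12 FPKM at P3. All 12 genes of an astrocyte list and all 12 of a progenitor list were also detected at both ages. Detection therefore does not single out the labelled cell type.

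Pdgfra, the receptor for the growth factor that drives precursor division, had a larger ratio. It lies at mm9 chromosome 5, 75548316 to 75594229. In the authors' deposited table it had 43.6 FPKM at P5 and 21.4 FPKM at P3 (log2 ratio 1.03, SE 1.13, 95% interval -1.19 to 3.25, p = 0.36). At P5 Pdgfra ranked behind Olig1 alone, and at P3 it ranked behind both Olig1 and Olig2. The level of Pdgfra over that of Olig2 was 1.28 at P5 and 0.685 at P3. That exchange of places is the sole difference in the order of the members above 0 between the ages, and since the table gives no spread of a level, neighbours in the order could not be tested against each other.

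Sox10 and Nkx2-2 stood apart from the other precursor factors in level. Sox10 encodes the factor that keeps lineage identity and then drives myelin genes, and lies at mm9 chromosome 15, 78985343 to 78994920. In the authors' deposited table it had 8.20 FPKM at P5 and 1.06 FPKM at P3, 7.73 times as much at P5 (log2 ratio 2.95, SE 1.68, p = 0.079). Olig2 exceeded Sox10 4.14-fold at P5 and 29.4-fold at P3, although both mark precursors and their descendants. The difference between the log2 ratio of Sox10 and that of Olig2 was 2.83, with a 95% interval from -0.91 to 6.57.

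Nkx2-2, a homeobox factor induced as precursors begin to differentiate, was the lowest precursor member. Its row spans 154 kb of mm9 chromosome 2, from 147003282 to 147157417, together with the antisense gene Nkx2-2as, which is listed at 0 at both ages. In the authors' deposited table Nkx2-2 had 2.49 FPKM at P5 and 1.05 FPKM at P3 (log2 ratio 1.25, SE 2.22, p = 0.57). With no strand information in the sources used here, reads of the 2 overlapping genes cannot be told apart. Without Nkx2-2, an alternative that was not planned, the median log2 ratio of the precursor members was 0.58, against 1.03 with it.

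Among the myelin members, Ugt8a and Mbp were present at both ages. Ugt8a encodes the enzyme that makes galactosylceramide, the main glycolipid of myelin, and its row spans mm9 chromosome 3 from 125568261 to 125641468. In the authors' deposited table it had 9.76 FPKM at P5 and 1.12 FPKM at P3 (log2 ratio 3.12, SE 1.70, 95% interval -0.22 to 6.46, p = 0.067), the largest ratio of the 7 members above 0 at both ages. Its levels ran beside those of Sox10, with Ugt8a over Sox10 at 1.19 at P5 and 1.06 at P3. Among all tested rows above 0 at both ages, 95.2% had a lower ratio than Ugt8a and 94.6% a lower ratio than Sox10.

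Mbp encodes myelin basic protein, which compacts the myelin membrane. Its row covers 111 kb of mm9 chromosome 18, a span that includes the upstream exons of the Golli transcripts, which neurons and other cells are also known to make, so a row of this kind does not separate myelin transcripts from Golli transcripts. In the authors' deposited table Mbp had 21.9 FPKM at P5 and 4.36 FPKM at P3 (log2 ratio 2.33, SE 1.82, 95% interval -1.24 to 5.90, p = 0.20). Mbp ranked behind Olig1, Olig2 and Pdgfra at each age. Its level over that of Pdgfra was 0.503 at P5 and 0.204 at P3.

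Mag and Mog, late myelin proteins of the inner and the outermost myelin surface, were above 0 at P5 alone. Mag (mm9 chromosome 7, 31684202 to 31699851) had 1.53 FPKM at P5 and was listed at 0 at P3 (p = 0.11 in the authors' deposited table). Mog (mm9 chromosome 17, 37147685 to 37160343) had 1.08 FPKM at P5 and was listed at 0 at P3 (p = 0.18 in the authors' deposited table). A listing at 0 gives no fold, and it can be a failed estimate, since 16 of 79 cytosolic ribosomal protein genes of the table were also listed at 0 at P3. Of all tested rows, 3.62% were listed at 0 at P3 and above 0 at P5, and 0.668% were listed at 0 at P5 and above 0 at P3. At P5 both late myelin genes were near the lower end of expressed genes, Mag above 30.6% and Mog above 25.6% of rows with FPKM above 0.

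**Figure D2:**
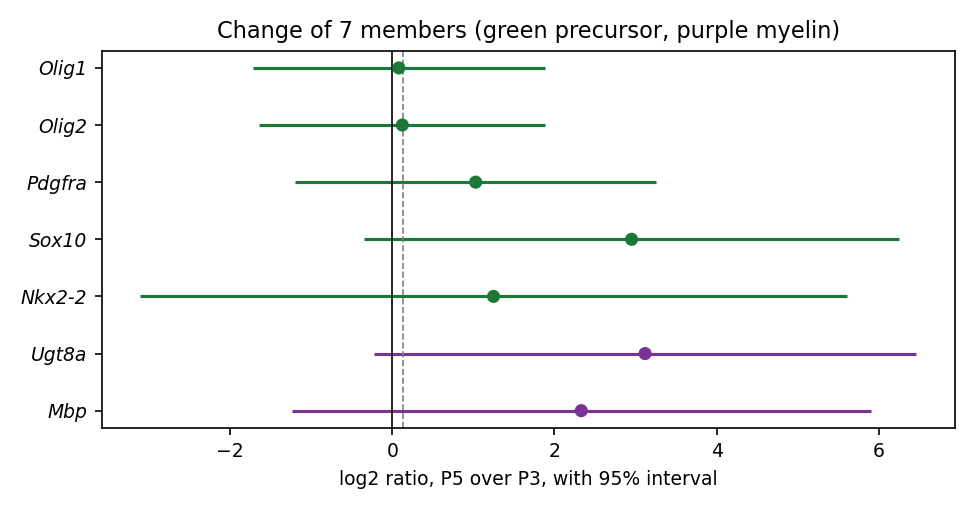
Points are the deposited log2 ratios of P5 over P3 for the 7 members with FPKM above 0 at both ages, and lines are 95% intervals from the SE that the test statistic implies; the dashed line is the median of all tested rows. Each interval crosses 0, from Olig1 (ratio 0.08) to Ugt8a (ratio 3.12).

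The comparison of myelin with precursor genes rested on these wide errors. The median log2 ratio was 2.72 for the 2 myelin members above 0 at both ages (Ugt8a and Mbp) and 1.03 for the 5 precursor members, a difference of 1.70. For single pairs the difference in log2 ratio was 3.04 between Ugt8a and Olig1 (95% interval -0.76 to 6.83) and 2.25 between Mbp and Olig1 (95% interval -1.75 to 6.25). Against Sox10 it was 0.17 for Ugt8a (95% interval -4.53 to 4.86) and -0.62 for Mbp (95% interval -5.48 to 4.24). The interval held 0 in 10 of 10 pairs of a myelin and a precursor member, with the errors of the 2 genes taken as independent, although they come from the same libraries. By point estimate, Sox10 sat with the myelin genes and Olig1 and Olig2 with the middle of the table. With Mag and Mog set to the lowest P3 level of a myelin member above 0, which was added after seeing the data, the difference of medians was 0.36.

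Rows that were low at P3 had larger ratios across the table, which sets the scale for these values, although the P3 value that groups the rows also enters the ratio. Among 2278 tested rows with 0.5 to 2 FPKM at P3, where Sox10, Nkx2-2 and Ugt8a lie, the median log2 ratio was 0.65 and 39.2% had a ratio of at least 1. In that range 2.41% of rows had a ratio at or above that of Ugt8a and 3.16% one at or above that of Sox10. Among 4594 rows with 2 to 10 FPKM at P3, 0.892% had a ratio at or above that of Mbp. Among 1626 rows with 20 to 60 FPKM at P3, where Olig1, Olig2 and Pdgfra lie, the median was -0.16 and 4.80% had a ratio of at least 1, Pdgfra being 1 of them. In the plot of all tested rows Pdgfra, Sox10, Ugt8a and Mbp lie above the diagonal, toward the upper edge of the rows with a like P3 level.

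**Figure D3:**
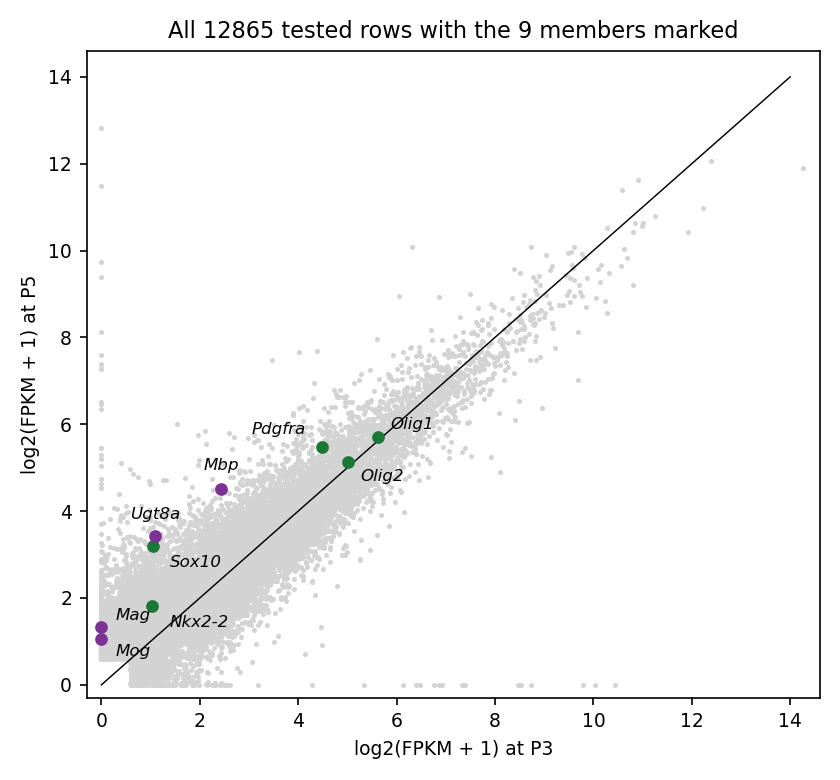
Each grey point is 1 of 12865 tested rows, with log2(FPKM + 1) at P5 on the vertical axis and at P3 on the horizontal axis; the line marks equal values, green points are precursor members and purple points myelin members. Olig1 and Olig2 lie on the line, while Mag and Mog sit on the left edge, at 0 at P3.

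The proximal promoters of the members differed in base composition. RefSeq sequence on GRCm38.p6, a newer build than the mm9 of the table, was at hand for 6 of the 9 members, and 4 are shown because they include the steadiest gene with an entry (Olig2), the gene with the largest ratio (Ugt8a) and both genes listed at 0 at P3 (Mag and Mog). Each line gives the 250 bases before the annotated start, 5′ to 3′ on the strand of the gene. Capitals mark matches on either strand to 3 words: the E-box CAGNTG, the SOX word ACAANG and the GC box GGGCGG. The windows are chr16:91225300-91225549 (plus strand) for Olig2, chr3:125938653-125938902 (minus strand) for Ugt8a, chr7:30914864-30915113 (minus strand, the first of 3 annotated starts) for Mag and chr17:37023399-37023648 (minus strand) for Mog.
Olig2: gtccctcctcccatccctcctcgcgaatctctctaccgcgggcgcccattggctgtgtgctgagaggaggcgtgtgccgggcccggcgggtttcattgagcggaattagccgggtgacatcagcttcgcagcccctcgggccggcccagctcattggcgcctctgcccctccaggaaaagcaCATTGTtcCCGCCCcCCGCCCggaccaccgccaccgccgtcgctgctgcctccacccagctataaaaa
Ugt8a: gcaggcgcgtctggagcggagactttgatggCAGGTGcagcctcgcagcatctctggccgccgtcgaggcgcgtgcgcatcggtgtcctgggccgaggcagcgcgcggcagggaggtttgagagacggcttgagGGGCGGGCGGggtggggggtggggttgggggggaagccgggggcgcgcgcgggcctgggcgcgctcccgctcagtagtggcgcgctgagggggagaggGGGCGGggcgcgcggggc
Mag: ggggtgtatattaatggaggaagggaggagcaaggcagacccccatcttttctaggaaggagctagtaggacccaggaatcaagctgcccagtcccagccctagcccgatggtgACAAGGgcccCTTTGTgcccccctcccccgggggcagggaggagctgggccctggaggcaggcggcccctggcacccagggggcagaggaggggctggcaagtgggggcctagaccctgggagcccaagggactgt
Mog: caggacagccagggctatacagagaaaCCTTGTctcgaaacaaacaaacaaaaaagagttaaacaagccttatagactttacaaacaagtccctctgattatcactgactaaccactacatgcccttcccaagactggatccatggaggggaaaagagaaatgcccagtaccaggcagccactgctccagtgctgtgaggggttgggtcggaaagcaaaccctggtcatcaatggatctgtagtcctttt

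Ugt8a had the highest GC content of the 4 windows, 76.8% with 32 CpG sites, and Olig2 had 66.8% with 22. Mag had 66.0% GC but 3 CpG sites, and Mog 46.8% with 2, beside a median of 52.0% and 6 CpG sites over 1 window for each of 27025 genes. GC boxes were present in Ugt8a, as 3 matches of which 2 overlap, and in Olig2, as 2, while the windows of Mag and Mog held none of these letters. In Mag 2 SOX words on opposite strands began 136 and 126 bases before the start. Over the first windows of the 6 members, the SOX word was found in 4, the E-box in 3 and the GC box in 3, against 36.6%, 44.5% and 32.9% of the 27025 genes. Such matches describe letters and do not show binding.

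Other genes of the precursor stage were mostly detected at both ages. Of 20 listed genes 19 were tested, 0 passed the authors' Cuffdiff test at q = 0.05 in either direction and 0 had an unadjusted p under 0.05, and 17 had the higher FPKM at P5. Their median log2 ratio was 0.75, and 6 of 19 had a ratio of at least 1, where 23.9% of tested rows above 0 at both ages did. Ptprz1 and Cspg5, abundant proteoglycan genes that other neural cells share, had small ratios. Ptprz1 was at 125 FPKM at P5 and 106 at P3 (log2 ratio 0.24, SE 1.33), and Cspg5 at 99.1 and 110 (log2 ratio -0.15, SE 1.13). Cspg4, which encodes the NG2 proteoglycan of precursors and pericytes, had 4.54 FPKM at P5 and 0.878 FPKM at P3 (log2 ratio 2.37, SE 1.47). Bcan was at 60.8 FPKM at P5 and 31.4 at P3, and Susd5 at 0.648 and 0.0040.

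The median log2 ratio was 1.36 for genes of committed and newly formed oligodendrocytes. Of 16 listed, 15 were tested, 11 with higher and 4 with lower FPKM at P5, and 0 passed the authors' Cuffdiff test at q = 0.05 or had an unadjusted p under 0.05. Enpp6, an enzyme that marks newly formed oligodendrocytes, had 6.30 FPKM at P5 and 0.375 FPKM at P3 (log2 ratio 4.07, SE 2.56). The corepressor Zfp488 had 0.805 FPKM at P5 and 0.0225 FPKM at P3. The more abundant members are not specific to the lineage. Fyn, a kinase that acts downstream of axon contact, was at 47.8 FPKM at P5 and 48.0 at P3, Sirt2, a deacetylase, at 92.3 and 49.5, and Enpp2, which makes lysophosphatidic acid, at 39.6 and 13.9.

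Other myelin genes mostly had the higher FPKM at P5. Of 24 listed, 18 were tested, 14 with higher and 4 with lower FPKM at P5, with a median log2 ratio of 1.59 over the 16 above 0 at both ages. At q = 0.05, 0 passed the authors' Cuffdiff test in either direction, and 1 of 18 had an unadjusted p under 0.05, where 0.770% of all tested rows did. Cnp, an enzyme of the myelin cytoplasm, had 49.3 FPKM at P5 and 16.4 FPKM at P3 (log2 ratio 1.59, SE 1.12). Cryab, a small chaperone, had 48.9 and 7.89 FPKM, and Trf, the iron carrier transferrin, 14.5 and 1.21. Cnp was higher than Mbp at both ages.

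The myelin list did not go 1 way. Genes chosen after their values were seen mark its limits. Myrf, listed under its older symbol Gm98, encodes the factor that switches on myelin genes and had 0.864 FPKM at P5 and a listing at 0 at P3. Ermn, Adamts4 and Gjb1 had the lower FPKM at P5: Ermn was at 0.233 FPKM at P5 and 2.83 at P3 (log2 ratio -3.60, SE 2.01), Adamts4 at 0.266 and 2.54, and Gjb1 at 0.729 and 5.12. Mobp, Opalin, Hapln2 and Klk6, genes of mature oligodendrocytes, were listed at 0 at both ages. Evi2a shares its locus in the table with Omg and had an implied SE of 94.5, with a 95% interval from -182 to 189.

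**Figure D4:**
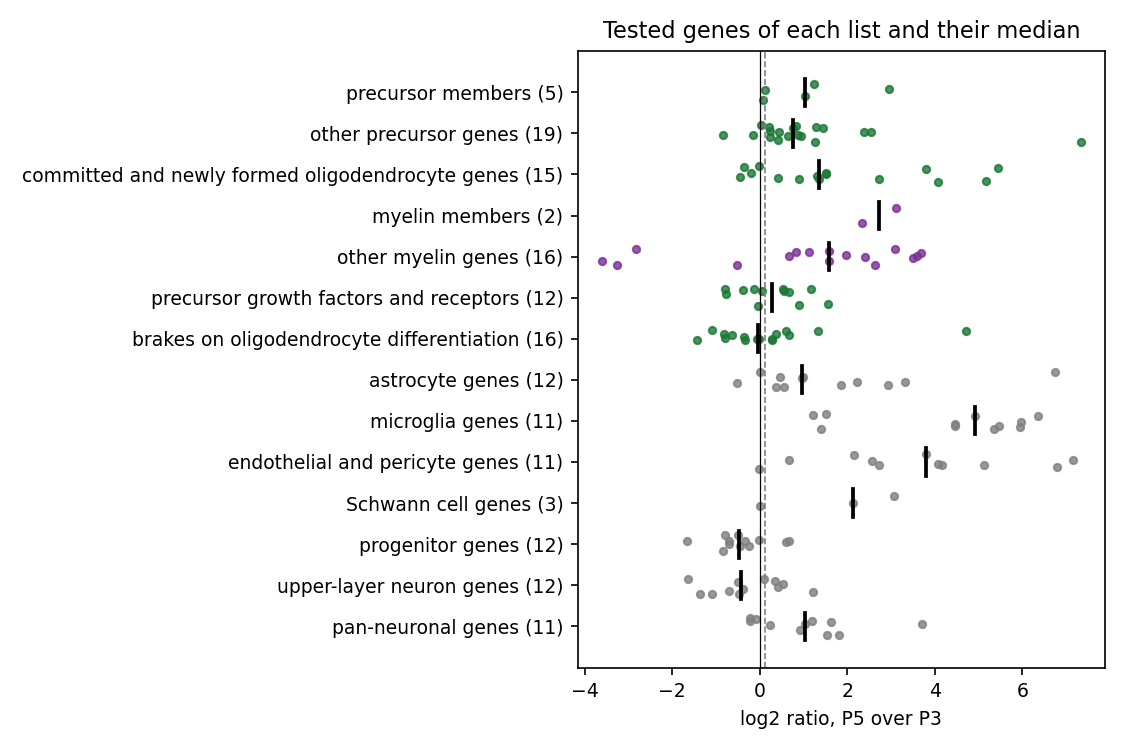
Points are the deposited log2 ratios of P5 over P3 of the tested genes of each list with FPKM above 0 at both ages (number in brackets), black bars are list medians and the dashed line is the median of all tested rows. Myelin members (median 2.72) lie above precursor members (median 1.03), and microglial (4.92) and endothelial (3.81) genes lie above both.

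Signals that act on precursors showed no shared direction. Of 18 growth factors and receptors 12 were tested, 7 with higher and 5 with lower FPKM at P5 (median log2 ratio 0.29), and 0 had an unadjusted p under 0.05. Igf1, a growth factor for the lineage, was at 40.2 FPKM at P5 and 17.7 at P3 (log2 ratio 1.18, SE 1.54), Fgfr1 at 9.52 and 16.6, Pdgfc at 5.93 and 10.1, and the axonal signal Nrg1 at 24.3 and 23.6. Of 16 genes listed as brakes on oligodendrocyte differentiation, 7 had higher and 9 lower FPKM at P5 (median log2 ratio -0.04). Id2, an inhibitor of basic helix-loop-helix factors, was at 290 FPKM at P5 and 291 at P3, while Sox9 and Sox11 were at 143 and 252 and at 65.1 and 176. Gpr37l1, a glial receptor, had the lowest p of that list, with 24.7 FPKM at P5 and 0.946 FPKM at P3 (log2 ratio 4.70, SE 1.85, p = 0.011 in the authors' deposited table). It was the 1 of 16 with an unadjusted p under 0.05, where 0.770% of all tested rows had one, and 0 passed at q = 0.05. A place in that list does not show that a gene acts as a brake.

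Most markers of microglia, vessels and astrocytes had the higher FPKM at P5, as the myelin genes and 56.8% of all tested rows did. Microglial genes summed to 160 FPKM at P5 and 20.2 FPKM at P3, with 11 of 11 tested genes higher at P5 and 1 of 12, Itgam, listed at 0 at P3. Endothelial and pericyte genes summed to 956 and 914 FPKM, of which Rgs5 alone gave 905 and 911, with 10 of 11 tested genes higher at P5 and Tek at 0 at P3. Astrocyte genes summed to 3086 FPKM at P5 and 2420 FPKM at P3, with 11 of 12 higher at P5 and none at 0. Of these genes 0 passed the authors' Cuffdiff test at q = 0.05. An unadjusted p under 0.05 was found in 2 of 11 microglial, 2 of 11 endothelial and pericyte and 2 of 12 astrocyte genes, against 0.770% of all tested rows. Median P3 levels of the tested genes were 0.374 FPKM for microglia and 0.153 FPKM for vessels, and low P3 levels went with larger ratios across the table. The part of microglia, vessel cells and astrocytes in the values of the oligodendrocyte genes was not tested. Of 9 genes of Schwann cells, the myelinating cells of nerves, 5 were listed at 0 at both ages, and 3 of 3 tested genes had the higher FPKM at P5 (median log2 ratio 2.13). Pmp22, which other cells share, was at 24.4 FPKM at P5 and 24.3 at P3 (log2 ratio 0.0075, SE 0.995), the transcription factor gene Egr2 at 1.46 and 0.333 (log2 ratio 2.13, SE 2.85) and Ngfr at 0.605 and 0.0720 (log2 ratio 3.07, SE 3.30). Progenitor genes, which can be expressed together with Olig1 and Olig2, went the other way, with 10 of 12 lower at P5 and sums of 4435 and 5612 FPKM, most of it from Fabp7 at 4272 and 5388. Their part in the steady Olig1 and Olig2 values was not tested either.

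Genes of the sorted neurons themselves did not share 1 direction. FPKM was higher at P5 for 5 of 12 upper-layer genes and lower for 7, and their log2 ratios had a median of -0.42. Mef2c, the highest of them, was at 226 FPKM at P5 and 156 at P3, and Rorb at 152 and 119. Of 11 tested pan-neuronal genes 8 were higher at P5 (median log2 ratio 1.04), with Gap43 at 1474 and 1243 FPKM and Stmn2 at 758 and 332. Against these, the 9 members together had 173 FPKM at P5 and 108 FPKM at P3.

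For 3 members the tested rows with the most similar pair of values were looked up, by Euclidean distance in log2(FPKM + 1) over the 2 ages. Nearest to Olig1 were Prmt5, at 49.5 FPKM at P5 and 47.8 at P3, and Dnaja2, at 50.5 and 46.6. Nearest to Pdgfra were Ddost and Mobkl3, and nearest to Ugt8a were Cgref1, at 9.38 and 1.27 FPKM, and Ethe1, at 8.93 and 1.16. Within a distance of 0.25 lay 109 of the remaining rows for Olig1, 29 for Pdgfra and 11 for Ugt8a. With 2 values per gene such likeness was thus more common for Olig1 than for Ugt8a. The counts also depend on how many rows have a like level.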

How the data were processed

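RNA sequencing of sorted upper-layer neurons was analysed from 1 table, which holds the comparison of 3 P5 with 3 P3 samples. The submitters' processing notes name TopHat, Cuffdiff 2.02 and mm9. Gene annotation, read length and strandedness were not given in the sources used here. Expression is deposited as FPKM, pooled by the authors to 1 value per age, per the file headers. The deposited log2 ratio and test statistic were read as scores, because they hold a placeholder where 1 age is 0, and the deposited p-values and q-values were used as the authors gave them. The table has no values per sample. FPKM keeps no counts, so depth and its precision are unknown.

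The test was the authors' Cuffdiff test at q = 0.05 over all 12865 tested rows. In the 12313 tested rows above 0 at both ages, the deposited p matched a two-sided normal p of the statistic to within 2.8e-06, so an SE was taken as the size of the log2 ratio over that of the statistic, and 95% intervals as 1.96 SE either side. A simulation of this step drew its values with these same SEs. It therefore checked the arithmetic and cannot show that the SEs suit the data. The replicates are called biological, but their numbers carry no stated pairing. The table's start positions count from 0, and 1 was added before printing, since end minus start equalled the RefSeq gene length in 6706 genes and was 1 short of it in 444.

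The 15 lists, which include the precursor and the myelin members, were chosen with earlier results of these data known. They hold 189 genes, 3 of them found under an older symbol and 6 in more than 1 list. The text names all members, the 3 tested genes of highest mean FPKM and the 2 of lowest p in each pathway or family list, the 2 of highest mean FPKM in each cell type list, and the 2 rows nearest to each of 3 members; every other gene in the text was chosen after its values were seen, and some genes that the rule names are not reported here. Rows were also grouped by P3 level after the values were seen. Alternatives were another q, Bonferroni and recomputed Benjamini-Hochberg adjustment, division of the statistic by its robust spread, pseudocounts of 1 and 0.1 FPKM, a minimum of 1 FPKM or of 1 log2 unit, centring, and means in place of medians. Leaving out genes at overlapping loci or in more than 1 list, and setting Mag and Mog to a P3 level above 0, were not planned. Python 3.11.15, pandas 2.3.3 and SciPy 1.17.1 were used.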

Additional observations from a re-analysis of the deposited data

How the results depend on the processing

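No paired analysis was possible because the table holds 1 pooled value per age, and for the same reason leaving out each replicate in turn was not run. Calls among the members stayed at 0 higher and 0 lower at P5 under all 6 other rules tried, including the division of the statistic by its robust spread of 0.66, which called 2 rows of the whole table and gave the members a lowest q of 0.426, for Ugt8a. Centring on the median of all tested rows (0.13) turned the log2 ratio of Olig1 to -0.050 and that of Olig2 to -0.0076; the other 28 alternatives for single members stayed above 0. The difference of medians between myelin and precursor members, 1.70, was 0.95 with a pseudocount of 1 FPKM, 2.26 with 0.1 FPKM and 2.21 as a ratio of summed FPKM. With a pseudocount of 1 FPKM the medians of microglial and endothelial genes were 2.89 and 0.72. Wide errors limit every ratio: the median implied SE of all tested rows was 1.38 log2 units. The robust spread of 0.66 lies below 1, the value for a standard normal statistic. The SEs and intervals given here were not rescaled for this and may be too wide. After the division, Ugt8a, Sox10, Mag and Mog fell below the unadjusted threshold of 0.05, and the other members did not. The count of 0 members below that threshold in the deposited test therefore depends on the scale of the statistic. So does the crossing of 0 by the intervals of Ugt8a and Sox10. How many of all tested rows fell below the threshold after the division is not given here.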

Other observations

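Of 11 relatives of the precursor factors and of Pdgfra, 5 were listed at 0 at P5 and 7 at P3, and 4 were tested. Olig3, the third member of the Olig family, was at 0.187 FPKM at P5 and listed at 0 at P3 and was not tested. Of 6 relatives of Nkx2-2, Nkx2-4, Nkx2-5, Nkx2-9 and Nkx6-1 were listed at 0 at both ages, Nkx2-3 was at 0.372 FPKM at P5 and at 0 at P3, and Nkx2-1, a factor of ventral forebrain progenitors, was at 0.585 FPKM at P5 and 0.0391 at P3. Kit and Kdr, receptor genes that lie beside Pdgfra on chromosome 5, had 4.08 and 1.97 FPKM at P5 and 1.65 and 0.0571 FPKM at P3 (log2 ratio 1.30, SE 1.71 for Kit and 5.11, SE 3.10 for Kdr). Bhlhe22, a relative of the Olig genes expressed in cortical neurons, was at 29.3 FPKM at P5 and 53.4 FPKM at P3 (log2 ratio -0.87, SE 0.88). None of the 4 tested genes of this group passed the authors' Cuffdiff test at q = 0.05, and 0 had an unadjusted p under 0.05.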
